A study of Mus musculus with 28 samples.

Results

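The genes described here are 5 genes of cellular zinc handling among the 54532 genes of the count table: Mt1 and Mt2, the metallothioneins expressed in most tissues, Mtf1, the zinc sensor that drives their transcription, Slc30a1, the zinc exporter ZnT1 of the plasma membrane, and Slc39a14, the importer ZIP14. They were chosen by name, with earlier results of these data known, and all 5 were found in the table. Their RNA was measured by bulk RNA sequencing in bone marrow-derived macrophages (BMDMs), murine macrophages grown from marrow with M-CSF, which every group received. Cells were incubated with PBS as the control, with plasma-derived von Willebrand factor (pd-VWF, 10 µg/ml), the clotting glycoprotein that tethers platelets, or with bacterial lipopolysaccharide (LPS), given at 100 ng/ml. Incubation lasted 3.5 h or 16 h. Each time had 5 cultures with PBS, 5 with VWF and 4 with LPS, 28 in all, labelled as biological replicates. Whether they came from separate mice is not given, so p values measure the spread between these cultures.

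Metallothioneins are small cysteine-rich proteins that bind zinc and copper and so set how much free metal a cell holds. When free zinc rises, MTF-1 binds it, enters the nucleus and occupies metal response elements, short DNA motifs found before the metallothionein genes and before Slc30a1. ZnT proteins of the SLC30 family move zinc out of the cytosol, into vesicles or out of the cell, while ZIP proteins of the SLC39 family move it in. In macrophages these genes are known to respond to bacterial products, and ZIP14 is also known to take up iron that is not bound to transferrin.

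VWF-treated BMDMs had less Slc30a1 RNA than control cells at both times, 4.12-fold less at 3.5 h, and 8.99-fold more Slc39a14 RNA at 3.5 h. Mt1 did not pass the test between VWF-treated and control cells at 3.5 h and was 6.47-fold lower with VWF at 16 h. LPS-treated cells had 3.31-fold more Mt1 and 12.7-fold more Mt2 than control cells at 3.5 h, and 2.58-fold more Slc30a1 at 16 h. Mtf1 RNA stayed under 10 TPM (a level scaled by length and depth) in every culture. Mt2 reached 10 TPM, the filter for testing, only in LPS-treated cultures, so where tested against control it had to be higher with LPS. It held only 18 to 62 counts in control cultures at 3.5 h, and its level is uncertain, as described below.

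The promoters are shown because metal response elements, whose core is TGCACNC or TGCGCNC, are the DNA through which zinc acts on Mt1, Mt2 and Slc30a1. The windows are RefSeq sequences of build GRCm38.p6 from 250 bases before the RefSeq start to its first 30 transcribed bases, plus strand, 5′ to 3′, and capitals mark core matches on either strand.
Mt1, chr8:94178839-94179118: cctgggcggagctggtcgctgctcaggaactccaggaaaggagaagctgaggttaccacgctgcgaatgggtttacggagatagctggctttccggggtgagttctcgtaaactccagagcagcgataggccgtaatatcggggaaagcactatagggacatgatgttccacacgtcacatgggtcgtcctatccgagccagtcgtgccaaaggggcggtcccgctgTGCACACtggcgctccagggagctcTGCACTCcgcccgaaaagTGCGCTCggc
Mt2, chr8:94172368-94172647: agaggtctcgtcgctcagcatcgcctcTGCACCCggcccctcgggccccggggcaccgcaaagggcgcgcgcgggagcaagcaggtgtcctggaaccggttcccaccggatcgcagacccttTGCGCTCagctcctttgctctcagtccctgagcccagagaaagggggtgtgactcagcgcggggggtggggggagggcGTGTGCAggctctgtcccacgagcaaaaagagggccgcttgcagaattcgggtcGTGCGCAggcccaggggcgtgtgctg
Slc30a1, chr1:191906531-191906810: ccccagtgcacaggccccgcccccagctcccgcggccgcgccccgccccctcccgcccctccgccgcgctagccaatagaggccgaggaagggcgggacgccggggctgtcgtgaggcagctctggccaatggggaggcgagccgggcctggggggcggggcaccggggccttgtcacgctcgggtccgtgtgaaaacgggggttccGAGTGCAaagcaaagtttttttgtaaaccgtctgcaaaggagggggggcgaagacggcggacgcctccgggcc
The search covered the full windows, which run to 50 bases after the start. Mt1 held 3 matches, all on the plus strand, at -23, 2 and 20 (first base, with the start as 0). Mt2 held 4, at -223 and -128 on the plus strand and at -50 and 4 on the minus strand. Slc30a1 held 2 on the minus strand, at -43 and at 30, the latter after the stretch shown. The window of Mtf1 held 0. No window was available for Slc39a14, so its promoter was not searched. Of 32817 RefSeq windows of the same length, 25.7% held at least 1 match, 7.12% at least 2, 1.97% at least 3 and 0.518% at least 4. An antioxidant-type motif, TGACNNNGC, had 1 match each in Mt2 (-79) and Slc30a1 (-82) and 0 in Mt1 and Mtf1, and 12.4% of all windows held it. A STAT-type motif, TTCNNNGAA, was in none of the 4 windows and in 8.29% of all windows. No match overlapped another. A match is a description of the letters, not of a bound site.

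Total counts per culture lay between 41131209 and 77699206 with a median of 52986574. All 8 macrophage markers, among them Adgre1, Csf1r and Lyz2, were present in every group. Their summed level was 18854 to 30691 TPM in control and 21591 to 27175 TPM in VWF-treated cultures at 3.5 h, and 28539 to 50694 TPM with VWF at 16 h. It was 10570 to 18181 TPM with LPS at 3.5 h and 9179 to 19007 TPM at 16 h. In control cultures at 16 h it was 7670 TPM in replicate 5 and 30905 to 36785 TPM in the others. Of 42 markers of other cell types, 7 reached 10 TPM in any culture and 25 stayed under 1 TPM. The highest sums were those of the 5 fibroblast markers, and they spread widely within groups. At 3.5 h they were 17.2 to 114 TPM in control, 15.1 to 145 with VWF and 11.8 to 48.2 with LPS. At 16 h they were 3.78 to 64.5 TPM in control, 19.5 to 95.6 with VWF and 12.9 to 88.6 with LPS. The 5 dendritic cell markers summed to 0.347 to 1.00 TPM in control cultures of both times and to 7.41 to 12.4 TPM with LPS. With VWF they summed to 8.30 to 10.2 TPM at 3.5 h and to 0.561 to 1.68 TPM at 16 h. None of the 5 was at 0 throughout a group, but the sums rested mostly on Xcr1. Its highest level in any culture was 11.5 TPM, beside 1.23 for Zbtb46, 0.757 for Clec9a, 0.260 for Siglech and 0.067 for Flt3. The 4 endothelial markers summed to 11.3 to 21.8 TPM with LPS at 16 h and to at most 5.67 TPM elsewhere. Among them Kdr had the highest level in any culture, 16.6 TPM, beside 4.55 for Pecam1, 2.10 for Cdh5 and 0.0838 for Tie1. The part of these other cell types in the results was not tested. In bulk RNA, fewer cells of a type and less RNA per cell cannot be told apart.

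Libraries also differed in the level of long genes relative to short ones. What this difference comes from was not tested. The gene length tilt of a culture was taken as the median log2 CPM, after centring each gene, of 2282 genes with more than 6000 exon bases minus that of 1079 genes with fewer than 1500. It averaged 0.31 in control and 0.31 in VWF-treated cultures at 3.5 h, -0.23 with LPS at 3.5 h, and at 16 h -0.15 in control cultures, -0.25 with VWF and -0.05 with LPS. Within groups the tilt moved with the short genes Mt1 (Pearson r of deviations from the group means = -0.83 over 28 cultures) and Mt2 (r = -0.70). It also moved with the long gene Slc39a14 (r = 0.82), less with Slc30a1 (r = -0.34). These points share their libraries and scaling. There were 5 cultures that stood more than 0.5 log2 units from their group mean, namely control 3.5 h replicate 4, VWF 3.5 h replicate 5, control 16 h replicate 5, VWF 16 h replicate 4 and LPS 16 h replicate 4. Each comparison was therefore also fitted with the tilt as a covariate and without these 5 cultures, both chosen after seeing the data. The calls of Mt1, Mt2, Slc30a1 and Slc39a14 against control and between VWF and LPS at each time were kept in both fits. The further transporter and target genes described below were not refitted this way.

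**Figure D1:**
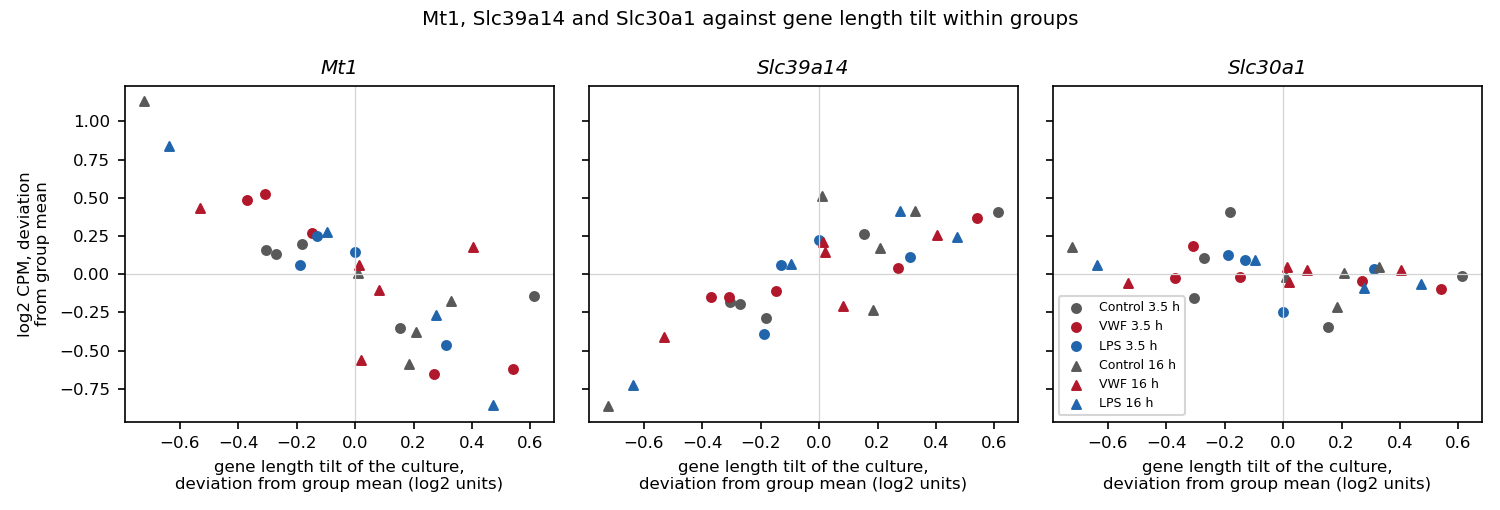
Deviation of log2 CPM from the group mean (vertical axis) of Mt1, Slc39a14 and Slc30a1 against the culture's gene length tilt, also as a deviation from its group mean (horizontal axis, log2 units), for the 28 cultures, with circles at 3.5 h and triangles at 16 h. Mt1 falls along the tilt (r = -0.83), Slc39a14 rises (r = 0.82), and Slc30a1 stays close to 0 (r = -0.34).

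Slc30a1 (ENSMUSG00000037434, GRCm38 chromosome 1, 191906767 to 191913247, plus strand) encodes the exporter that removes zinc from the cytosol across the plasma membrane. Its 5 control cultures at 3.5 h held 134, 165, 111, 123 and 97.4 CPM (counts scaled to library size with TMM factors over all cultures) in the order of their replicate numbers. The 5 VWF-treated cultures held 31.5, 32.0, 31.9, 36.8 and 30.4 CPM, all below every control culture and close to each other. The 4 LPS-treated cultures held 173, 163, 133 and 169 CPM, within or just above the control range.
At 16 h the control cultures were lower than at 3.5 h, at 64.2, 67.3, 56.1, 65.6 and 73.6 CPM. VWF-treated cultures stayed at 34.6, 37.0, 36.6, 34.5 and 36.6 CPM, again below every control. LPS-treated cultures held 162, 184, 166 and 181 CPM, all above every control.
The fitted log2 fold change of VWF against control was -2.04 (SE 0.14, edgeR quasi-likelihood test, adjusted p = 3.67e-07) at 3.5 h and -0.98 (SE 0.08, adjusted p = 9.46e-06) at 16 h, just short of the fold threshold of 1. Without control 16 h replicate 3, or with library size scaling, it was -1.03, past that threshold. For LPS against control it was 0.30 (SE 0.16, adjusted p = 0.130) at 3.5 h, which leaves an interval of 2 SE from -0.03 to 0.62, and 1.37 (SE 0.11, adjusted p = 3.98e-06) at 16 h.
VWF-treated cells held less Slc30a1 than LPS-treated cells by nearly the same amount at both times, with log2 fold changes of -2.31 (SE 0.11, adjusted p = 1.17e-07) and -2.30 (SE 0.07, adjusted p = 1.95e-08). The change of that difference over time was -0.01 (SE 0.12, adjusted p = 0.968), with an interval of 2 SE from -0.26 to 0.24. The effects against control did change with time, by 1.09 (SE 0.17, adjusted p = 3.39e-05) for VWF and 1.08 (SE 0.20, adjusted p = 0.000293) for LPS in edgeR. Both share the fall of the control cultures from 126 ± 25.5 CPM (SD, n = 5) at 3.5 h to 65.3 ± 6.32 CPM (SD, n = 5) at 16 h, a log2 fold change of -0.90 (SE 0.15, edgeR adjusted p = 0.00119) that was -1.02, past the fold threshold, with the tilt as a covariate. Without control 3.5 h replicate 2, the highest of them, the time changes were 0.97 for both, under the fold threshold, and the LPS change was 0.99 without LPS 3.5 h replicate 3. VWF-treated cultures themselves moved by 0.19 (SE 0.07, adjusted p = 0.0316) and LPS-treated cultures by 0.18 (SE 0.12, adjusted p = 0.223) between the times.
With library size scaling in place of TMM, which moves the median log2 fold change of all genes to -0.55 and -0.59 for LPS against control at 3.5 h and 16 h, the LPS value at 16 h was 0.81 (adjusted p = 2.98e-05), under the fold threshold, and the value at 3.5 h turned to -0.24 (adjusted p = 0.211). In the order of mean CPM, the LPS group at 16 h (173) stood above LPS at 3.5 h (160) and control at 3.5 h (126), with ranges that overlapped between neighbours. Control at 16 h and the VWF groups (35.9 at 16 h and 32.5 at 3.5 h) followed, and the VWF groups overlapped each other.

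**Figure D2:**
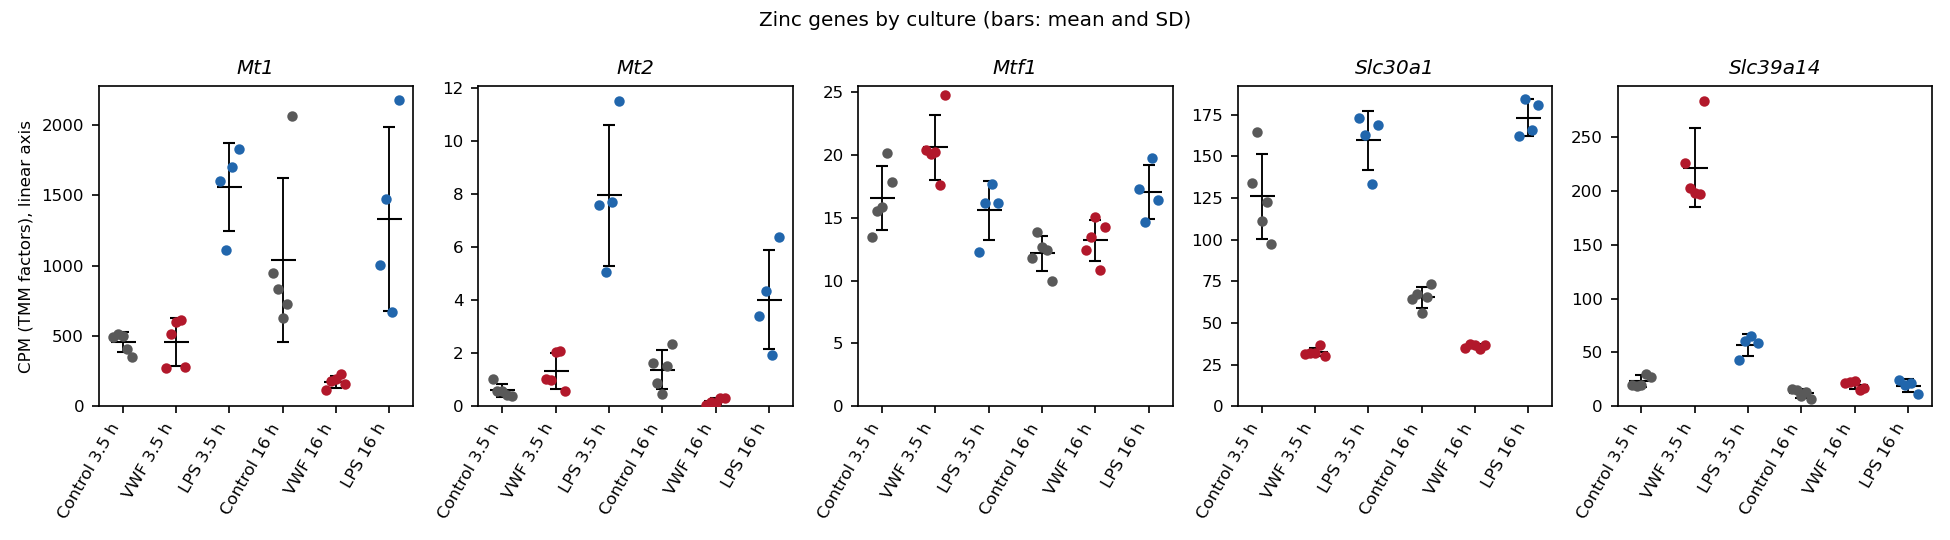
CPM with TMM factors (vertical axes, linear, from 0) of the 5 zinc genes in each culture, by group, with the mean and SD as bars. Slc30a1 lies between 30.4 and 37.0 CPM in both VWF groups and between 133 and 184 CPM in every LPS culture, and Slc39a14 stands out with VWF at 3.5 h at 198 to 284 CPM.

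Slc39a14 (ENSMUSG00000022094, GRCm38 chromosome 14, 70303469 to 70351425, minus strand) encodes ZIP14, which brings zinc and iron into the cytosol. Its control cultures at 3.5 h held 19.97, 18.7, 20.1, 30.4 and 27.5 CPM. With VWF they held 226, 203, 198, 198 and 284 CPM, and with LPS 42.9, 60.7, 65.5 and 58.5 CPM. The groups at 3.5 h did not overlap, with VWF highest and control lowest.
At 16 h the control cultures held 16.3, 15.2, 9.72, 12.9 and 6.26 CPM, the VWF-treated cultures 21.8, 22.7, 23.4, 14.8 and 17.0 CPM and the LPS-treated cultures 24.6, 19.3, 21.9 and 11.2 CPM. These ranges overlapped. Control replicate 5 and LPS replicate 4, the lowest of their groups, are among the cultures with a far gene length tilt.
Log2 fold changes at 3.5 h were 3.17 (SE 0.17, edgeR adjusted p = 5.64e-08) for VWF against control, 1.24 (SE 0.16, adjusted p = 4.25e-05) for LPS against control and 1.95 (SE 0.15, adjusted p = 3.24e-06) for VWF against LPS. Library size scaling brought the LPS value to 0.69 (adjusted p = 0.00330), under the fold threshold. Among control cultures at 3.5 h 1 reached 10.6 TPM and the others 5.60 to 8.84 TPM, so Slc39a14 passed the filter of 10 TPM there mainly through the treated groups.
No culture reached 10 TPM at 16 h. With edgeR's filterByExpr filter the values at 16 h were 0.67 (SE 0.24, adjusted p = 0.0656) for VWF and 0.72 (SE 0.29, adjusted p = 0.0687) for LPS against control, and -0.01 (SE 0.21, adjusted p = 0.985) between VWF and LPS, with an interval of 2 SE from -0.43 to 0.42. The VWF effect was smaller at 16 h than at 3.5 h by 2.52 on the log2 scale (fitted value -2.52, SE 0.30, edgeR adjusted p = 1.74e-06). Within VWF-treated cultures Slc39a14 fell by 3.42 (SE 0.16, adjusted p = 1.41e-08) from 3.5 h to 16 h, within LPS-treated cultures by 1.49 (SE 0.24, adjusted p = 0.000541) and within control cultures the value was -0.90 (SE 0.25, adjusted p = 0.0145), under the fold threshold, though -1.03 without control 16 h replicate 1. In these 3 comparisons it passed the filter only through the cultures at 3.5 h, where it was high. The time change of the LPS effect was -0.58 (SE 0.36, adjusted p = 0.195), and -1.16 (adjusted p = 0.000284) with the tilt as a covariate. The difference between VWF and LPS changed by -1.96 (SE 0.28, adjusted p = 1.74e-05). In the fits of these time changes too, Slc39a14 passed the filter only through cultures at 3.5 h. A fall of an effect with time was therefore favoured from the start.

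Mt1 (ENSMUSG00000031765, GRCm38 chromosome 8, 94179082 to 94180327, plus strand) encodes a metallothionein and was the most abundant of the 5 genes per length in every group. Its control cultures at 3.5 h held 493, 516, 502, 407 and 352 CPM, and the VWF-treated cultures 271, 514, 597, 614 and 277 CPM, on either side of them. The LPS-treated cultures held 1601, 1110, 1697 and 1826 CPM, all above every other culture of that time.
Control cultures at 16 h held 946, 833, 627, 726 and 2065 CPM, the last of them the replicate with the far tilt and the low macrophage marker sum. The VWF-treated cultures held 115, 177, 192, 229 and 158 CPM, all below every culture of the other groups. LPS-treated cultures spread from 671 to 2173 CPM (1007, 1471, 671 and 2173), across the control range.
Against control, the log2 fold change with VWF was -0.10 (SE 0.23, edgeR adjusted p = 0.800) at 3.5 h, with an interval of 2 SE from -0.56 to 0.37. At 16 h it was -2.69 (SE 0.35, adjusted p = 0.000203), and between -2.83 and -2.28 when any 1 culture was left out. With the tilt as a covariate it was -2.67, and -2.38 without the 5 cultures of far tilt.
LPS against control gave 1.73 (SE 0.16, adjusted p = 3.53e-06) at 3.5 h and 0.31 (SE 0.45, adjusted p = 0.589) at 16 h, with an interval of 2 SE from -0.58 to 1.20. Library size scaling turned the value at 16 h to -0.22 (adjusted p = 0.609). The tilt differed between these groups at 3.5 h, and with it as a covariate the value at 3.5 h was 1.41 (adjusted p = 2.52e-05). VWF-treated cells held less Mt1 than LPS-treated cells at 3.5 h, with a log2 fold change of -1.80 (SE 0.26, adjusted p = 0.000229), and at 16 h, with -2.96 (SE 0.34, adjusted p = 3.94e-05). The covariate moved these to -1.11 (adjusted p = 4.49e-05) and -3.04 (adjusted p = 1.63e-06), the first smaller by over 1.5 times.
The effect of VWF on Mt1 changed with time by -2.58 (SE 0.44, edgeR adjusted p = 0.000110). Control cultures gained Mt1 between the times by 1.27 (SE 0.33, adjusted p = 0.0110), but by 0.82 without control 16 h replicate 5 and by 0.66 with the tilt as a covariate, both under the fold threshold. VWF-treated cultures gave -1.32 (SE 0.26, adjusted p = 0.000875), and LPS-treated cultures gave -0.15 (SE 0.34, adjusted p = 0.718). The time change of the LPS effect, -1.41 (SE 0.50, adjusted p = 0.0279), was -0.97 without control 16 h replicate 5, under the fold threshold, and was lost at adjusted p values of 0.0531 to 0.0588 without LPS 3.5 h replicate 4, LPS 16 h replicate 1 or LPS 16 h replicate 3. It was also lost with the tilt as a covariate, at -0.66 (adjusted p = 0.0550). The difference between VWF and LPS changed by -1.18 (SE 0.45, adjusted p = 0.0337), which was lost in 8 of the 18 fits that left out 1 culture, at adjusted p values of 0.0535 to 0.0838. Those 8 each lacked LPS 3.5 h replicate 2, LPS 16 h replicate 2 or 4, VWF 3.5 h replicate 2, 3 or 4, or VWF 16 h replicate 1 or 5. Library size scaling gave -0.97, under the fold threshold.

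Mt2 (ENSMUSG00000031762, GRCm38 chromosome 8, 94172664 to 94173568, plus strand) encodes the other widely expressed metallothionein and lies next to Mt1. Its counts were few. Control cultures at 3.5 h held 62, 31, 38, 32 and 18 counts, VWF-treated cultures 56, 46, 99, 88 and 44, and LPS-treated cultures 298, 210, 279 and 409. Only the LPS-treated cultures stood clear of the rest.
At 16 h the counts were 129, 78, 28, 99 and 134 in control cultures, 2, 14, 7, 18 and 16 in VWF-treated cultures and 159, 224, 78 and 257 in LPS-treated cultures. VWF-treated cultures lay below both other groups, which overlapped.
The level of Mt2 is uncertain. Of its 588 exon bases, 432 (73.5%) lie within Gm45774, an annotated antisense gene on the opposite strand, and since no strand setting is given, reads of Mt2 and of Gm45774 there cannot be told apart. Gm45774 itself held 10 to 39 counts with LPS at 3.5 h and 0 to 18 in the other groups. Its part in the Mt2 values was not tested.
Log2 fold changes of Mt2 for LPS against control were 3.67 (SE 0.34, edgeR adjusted p = 2.96e-06) at 3.5 h and 1.51 (SE 0.51, adjusted p = 0.0314) at 16 h. With the tilt as a covariate the first was 3.00 (adjusted p = 2.89e-05). In every comparison and time change with LPS, Mt2 passed the filter of 10 TPM only through LPS-treated cultures, since it reached at most 9.37 TPM in control and 8.57 TPM in VWF-treated cultures, so that it had to be higher with LPS. The call at 16 h was lost without control replicate 1, 2 or 4 or LPS replicate 1, 2 or 4, at adjusted p values of 0.0524 to 0.0872, and with library size scaling, at 0.95 (adjusted p = 0.0870). With the same limit, VWF against LPS gave -2.60 (SE 0.37, adjusted p = 0.000219) at 3.5 h and -4.46 (SE 0.56, adjusted p = 7.89e-05) at 16 h, and the covariate moved the first to -1.71 (adjusted p = 0.00106).
Against control, Mt2 was under the filter in the VWF comparisons. With filterByExpr, VWF gave 1.11 (SE 0.40, adjusted p = 0.0489) at 3.5 h, where the groups overlapped, and -2.95 (SE 0.59, adjusted p = 0.00426) at 16 h. The time change of the LPS effect on Mt2 was -2.16 (SE 0.63, edgeR adjusted p = 0.00937) and that of the difference between VWF and LPS -1.88 (SE 0.67, adjusted p = 0.0251). Within LPS-treated cultures the change from 3.5 h to 16 h was -0.91 (SE 0.38, adjusted p = 0.0666), but -1.08 without LPS 3.5 h replicate 2 and -1.23 without LPS 16 h replicate 4, both past the thresholds. Within VWF-treated cultures it was -2.81 (SE 0.53, adjusted p = 0.000675) with filterByExpr.

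**Figure D3:**
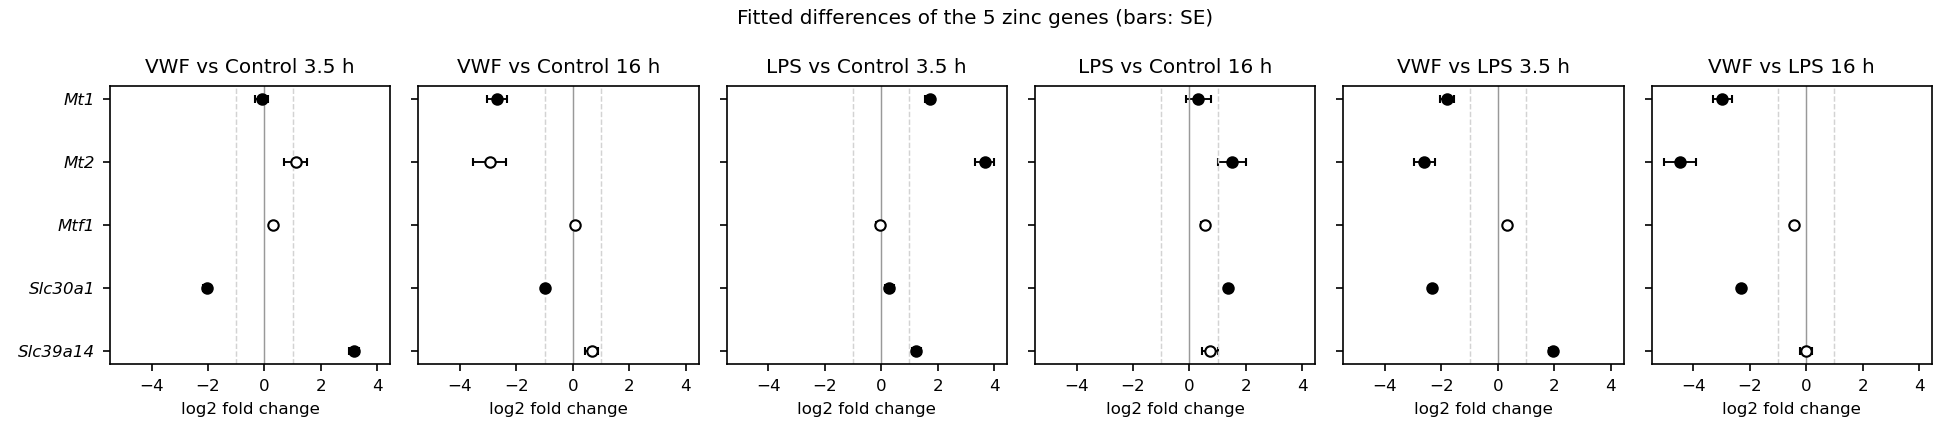
Log2 fold changes (horizontal axis) with SE bars of the 5 zinc genes in the 6 comparisons within a time, from edgeR. Filled points passed the filter of 10 TPM, open points come from the fit with filterByExpr, and dashed lines mark the fold threshold of 1. Mt1 is near 0 for VWF against control at 3.5 h and at -2.69 at 16 h, while Slc39a14 is at 3.17 and then at 0.67.

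How the metallothionein genes shared their reads was followed as the number of Mt1 counts per Mt2 count. This ratio was 481 to 973 in control cultures at 3.5 h, 268 to 520 with VWF and 159 to 221 with LPS. VWF-treated cultures overlapped the control range through 1 culture, and LPS-treated cultures overlapped neither group. At 16 h it was 474 to 1360 in control, 527 to 3682 in VWF-treated and 297 to 348 in LPS-treated cultures, and only the LPS-treated cultures lay apart.
In exact permutation tests of the log2 ratio (two-sided, n = 5 or 4 cultures a group, adjusted over 6 comparisons), the ratio was 2.25-fold lower with VWF than in control cultures at 3.5 h (p = 0.0159, adjusted p = 0.0190). At 16 h the difference of 0.59 on the log2 scale did not pass (exact p = 0.317). With LPS it was 4.00-fold lower than in control cultures at 3.5 h (exact p = 0.00794, the smallest this design allows, adjusted p = 0.0190) and 2.39-fold at 16 h (exact p = 0.0159, adjusted p = 0.0190). VWF-treated cells had a 1.78-fold higher ratio than LPS-treated cells at 3.5 h and a 3.61-fold higher one at 16 h (both exact p = 0.0159, adjusted p = 0.0190). These adjusted values rose to 0.0643 to 0.0857 without any 1 of the 4 LPS cultures at 3.5 h and to 0.0643 without LPS 16 h replicate 1. The ratio carries the uncertainty of Mt2, and at 2 counts in the VWF culture with the ratio of 3682 it also carries a large counting error.

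**Figure D4:**
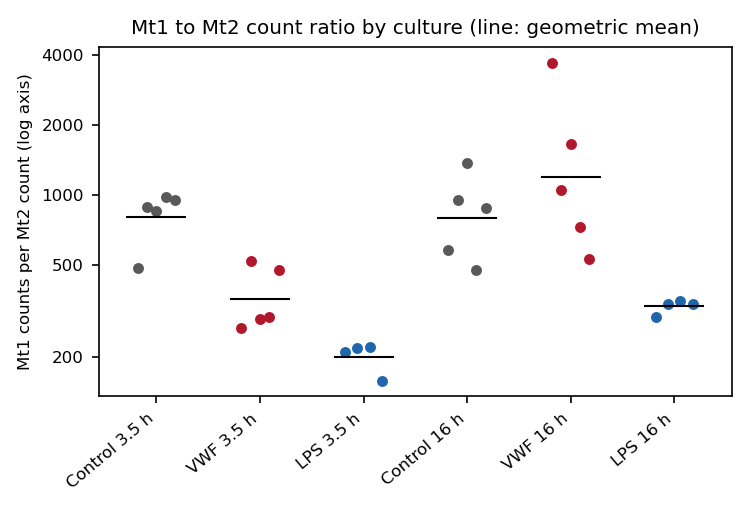
Mt1 counts per Mt2 count in each culture (vertical axis, logarithmic) by group, with the geometric mean as a line. The LPS groups are lowest at both times (159 to 221 and 297 to 348), and the VWF group at 16 h spreads most, from 527 to 3682.

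Mtf1 (ENSMUSG00000028890, GRCm38 chromosome 4, 124802104 to 124849800, plus strand) encodes the zinc-sensing transcription factor. It stayed under 10 TPM in every culture, at most 8.33 TPM, and so entered no fit with the main filter. Mean levels were 16.6 ± 2.54 CPM in control (SD, n = 5), 20.6 ± 2.57 in VWF-treated (n = 5) and 15.6 ± 2.33 in LPS-treated cultures (n = 4) at 3.5 h, and 12.2 ± 1.42, 13.2 ± 1.63 and 17.0 ± 2.12 at 16 h. All neighbours in the order of these means overlapped.
With filterByExpr, Mtf1 gave 0.29 (SE 0.11, adjusted p = 0.0559) for VWF and -0.06 (SE 0.13, adjusted p = 0.732) for LPS against control at 3.5 h. At 16 h VWF gave 0.06 (SE 0.10, adjusted p = 0.751) and LPS 0.53 (SE 0.12, adjusted p = 0.00454), where LPS-treated cultures lay above every control culture but under the fold threshold. VWF against LPS gave 0.33 (SE 0.13, adjusted p = 0.0569) and -0.43 (SE 0.12, adjusted p = 0.0107). Between the times Mtf1 gave -0.62 (SE 0.11, adjusted p = 0.000343) in VWF-treated cultures, which did not overlap, and -0.45 (SE 0.12, adjusted p = 0.0129) in control cultures, which did. Within groups Mtf1 moved with the length tilt (r = 0.78 over 28 cultures). The exons of Mtf1 overlap 1110065P20Rik on the opposite strand over 8.09% of their length, and those of Slc30a1 overlap 1700034H15Rik over 8.92%.

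Read against all genes, 2 of the 3 zinc genes tested were called (adjusted p under 0.05 and absolute log2 fold change over 1) for VWF against control at 3.5 h, where 14.7% of 8200 genes were. At 16 h 1 of 2 was called, where 8.71% of 7798 were. For LPS against control 3 of 4 were called at 3.5 h and 2 of 3 at 16 h, beside 24.5% and 27.6% of all genes. Between VWF and LPS all 4 tested genes were called at 3.5 h, where 11.4% of genes were, and 3 of 3 at 16 h, where 25.5% were. Library size scaling changed the split of higher and lower calls among all genes. For LPS against control it went from 1047 higher and 963 lower to 704 and 2213 at 3.5 h and from 1221 and 989 to 782 and 2319 at 16 h. It also moved VWF against control at 3.5 h from 746 and 458 to 608 and 652, VWF against LPS from 353 and 503 to 772 and 334 at 3.5 h and from 837 and 1095 to 1772 and 687 at 16 h, and the time change of that difference from 879 and 1173 to 1176 and 893. Genes that passed only through a group in which they were high are among these counts. The zinc genes, and the lists described below, were chosen with earlier results of these data known. Their shares beside those of all genes are therefore a description and not a test. The VWF and LPS comparisons share their control cultures. Between the times, 1 of 3 was called in control cultures (9.08% of genes), 2 of 3 with VWF (21.4%) and 1 of 4 with LPS (28.1%). For the change of an effect with time, 3 of 3 were called for VWF (13.5% of genes), 3 of 4 for LPS (26.3%) and 3 of 4 for the difference between VWF and LPS (25%).

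The genes whose log2 CPM over the 28 cultures was most like each zinc gene, by Pearson's r among genes that reach 10 TPM, were Vma21 (r = 0.93), Mt2 (0.91) and Tmem202 (0.91) for Mt1, and Prr13 (0.93), Ppp1r15a (0.92) and Mt1 (0.91) for Mt2. For Slc30a1 they were Hspa4l (0.93), Rcbtb1 (0.91) and Nck2 (0.90), for Slc39a14 Trps1 (0.97), Mtpn (0.97) and Creb1 (0.95), and for Mtf1 Arfgef1 (0.94), Smg8 (0.93) and Secisbp2l (0.91). The points share groups, libraries and the length tilt, so these values are a description. After removal of the group means, r between Mt1 and Mt2 was 0.78 and between Mt1 and Slc39a14 -0.65.

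Of the 10 genes of the ZnT family, 6 reached 10 TPM in any culture. VWF changed 2 of 6 tested at 3.5 h, Slc30a1 and Slc30a6, beside 14.7% of all genes. Slc30a6, a ZnT of the secretory pathway, rose from 9.72 ± 1.10 to 26.1 ± 1.57 CPM (SD, n = 5, log2 fold change 1.34, SE 0.09, edgeR adjusted p = 3.35e-07).
At 16 h VWF changed 1 of 5, beside 8.71% of all genes. This was Slc30a4, which loads zinc into vesicles and passed the filter only through the control cultures, where it was high. It fell from 24.1 ± 3.26 to 8.72 ± 0.58 CPM (SD, n = 5, log2 fold change -1.58, SE 0.12, edgeR adjusted p = 3.89e-06). LPS changed 1 of 6 at 3.5 h, a smaller share than the 24.5% of all genes, again Slc30a4, in the opposite direction, from 21.2 ± 1.10 CPM (n = 5) to 99.99 ± 10.6 CPM (n = 4), with a log2 fold change of 2.19 (SE 0.09, adjusted p = 2.81e-09). At 16 h LPS changed 2 of 5, beside 27.6% of all genes, namely Slc30a1 and Slc30a5, a Golgi transporter that fell (log2 fold change -1.30, SE 0.10, adjusted p = 4.67e-06). Slc30a5 averaged 28.97 TPM in control and 8.29 TPM in LPS-treated cultures at 16 h. It therefore passed the filter of 10 TPM mainly through the control cultures, where it was high.
The median log2 fold change of the ZnT genes tested was 0.35 and -0.47 for VWF and 0.46 and -0.25 for LPS at 3.5 h and 16 h, beside -0.01, -0.03, -0.02 and -0.03 over all genes.

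Of the 14 ZIP genes, 8 reached 10 TPM. Besides Slc39a14, VWF changed Slc39a4, the intestinal zinc importer ZIP4, as 1 of 7 tested at 16 h, where 8.71% of all genes were called. It rose from 2.77 ± 1.19 to 17.6 ± 3.44 CPM (SD, n = 5, log2 fold change 2.54, SE 0.35, edgeR adjusted p = 0.000296), and passed the filter only through the VWF-treated cultures. At 3.5 h Slc39a14 was the 1 of 7 called with VWF, and with LPS 2 of 7, Slc39a14 and Slc39a1, shares near the 14.7% and 24.5% of all genes. Slc39a1, an importer of the plasma membrane, rose from 196 ± 14.4 CPM (n = 5) to 455 ± 39.0 CPM (n = 4), with a log2 fold change of 1.17 (SE 0.08, edgeR adjusted p = 3.51e-07). None of the 6 tested was called with LPS at 16 h, beside 27.6% of all genes. Slc39a8 and Slc39a10 did not reach 10 TPM, with maxima of 6.56 and 8.93 TPM. Medians over the ZIP genes tested were -0.05 and 0.06 with VWF and -0.21 and 0.03 with LPS.

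**Figure D5:**
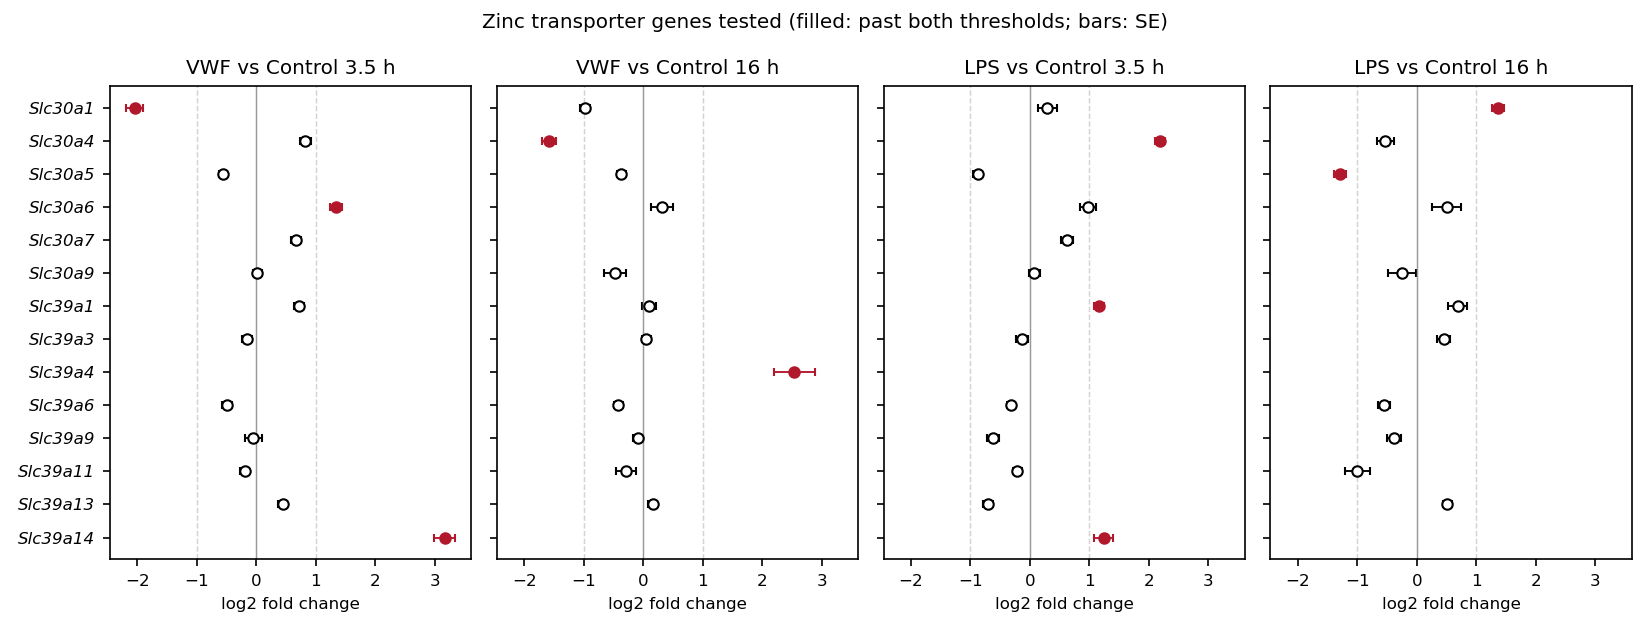
Log2 fold changes against control (horizontal axis) with SE bars of the ZnT and ZIP genes tested, from edgeR, with red filled points past both thresholds and dashed lines at the fold threshold of 1. VWF moves Slc30a1 (-2.04) and Slc39a14 (3.17) furthest at 3.5 h, and Slc39a4 (2.54) at 16 h.

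Of 5 further genes described as targets of MTF-1, 4 were tested. Gclc, which makes the first step of glutathione synthesis, fell with VWF at 3.5 h (log2 fold change -1.25, SE 0.14, edgeR adjusted p = 2.26e-05) and with LPS at 3.5 h (-2.64, SE 0.14, adjusted p = 3.43e-08) and 16 h (-1.02, SE 0.17, adjusted p = 0.000618). Ndrg1, a stress response gene, fell with VWF at 16 h (-2.53, SE 0.22, adjusted p = 1.53e-05), where it passed the filter only through control cultures, and rose with LPS at 3.5 h (1.71, SE 0.12, adjusted p = 2.10e-07). Selenow, a selenoprotein, rose with LPS at both times (1.99, adjusted p = 4.46e-06, and 2.68, adjusted p = 0.000189), as did Csrp1, a LIM domain protein (1.04, adjusted p = 9.28e-05, and 1.65, adjusted p = 8.91e-06). In all, VWF changed 1 of 4 at each time and LPS 4 of 4 and 3 of 4, beside 14.7% and 8.71% of all genes for VWF and 24.5% and 27.6% for LPS at 3.5 h and 16 h. Medians were 0.20 and -0.53 with VWF and 1.38 and 1.27 with LPS.
Of 8 genes of copper handling, 5 were tested, and the copper importer Slc31a1 and its relative Slc31a2 accounted for every call, 2 of 5 with VWF at both times and 1 of 5 and 2 of 5 with LPS, beside the same shares of all genes. Slc31a1 rose with VWF at 3.5 h (1.57, SE 0.09, edgeR adjusted p = 7.10e-08) and 16 h (1.47, SE 0.23, adjusted p = 0.000714) and with LPS at 16 h (2.86, SE 0.24, adjusted p = 7.21e-06). Slc31a2 rose with VWF (2.01 and 2.42, adjusted p = 6.03e-09 and 3.65e-05) and LPS (1.21 and 3.79, adjusted p = 1.07e-05 and 2.67e-06) at both times. Medians of the copper genes were 0.09 and 0.21 with VWF and 0.63 and -0.02 with LPS.
Of the pair that forms the zinc-binding protein calprotectin, S100a9 rose with LPS at 3.5 h (1.73, SE 0.63, edgeR adjusted p = 0.0307) as the 1 call among both genes in the 4 comparisons with control. It went from 1.78 ± 1.58 CPM (SD, n = 5) to 6.10 ± 3.16 CPM (n = 4). The highest level of S100a9 in any of the 28 cultures was 48.9 TPM. The further metallothioneins were not tested, with Mt3 at no more than 2.82 TPM and Mt4 at 0 counts in every culture.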

How the data were processed

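RNA of 28 BMDM cultures in 6 groups was sequenced. The authors aligned reads with STAR to GRCm38 and deposited raw counts per gene, not normalized. The sources used here do not give the annotation, strand setting or treatment of multimapping reads. Depth was 41131209 to 77699206 counts per culture.

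From the counts, TPM was computed with GENCODE M21 merged exon lengths, and genes with 10 TPM in at least 1 fitted culture were tested with edgeR 4.0.16 (R 4.3.3; TMM factors, robust quasi-likelihood test, Benjamini-Hochberg adjustment over all genes tested). Each comparison was fitted on the cultures of its groups. A gene was called at adjusted p under 0.05 and absolute log2 fold change over 1. SE is the log2 fold change over the root of F, and intervals are 2 SE either side. The script was tested on simulated counts. The alternatives were DESeq2 1.42.0, other scalings and filters, a fit of all groups, the replicate number as a block, no fold threshold, and each culture left out. The gene length tilt fits were added after seeing the data. The members and lists were chosen with earlier results of these data known. Genes named are the 5 members, their 3 most alike genes and list genes that were called against control or are among the best studied of their family (Slc39a8, Slc39a10, Mt3 and Mt4 here). Motifs were searched on both strands of RefSeq windows. Same-numbered cultures deviated together in every pair only for VWF against LPS at 16 h (r 0.20 to 0.81, 4 pairs), and the labels do not say what a number shares.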

Additional observations from a re-analysis of the deposited data

Results flagged for a closer look

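In 36 groups of cultures examined for a value far from the others, 4 were found, where chance gives about 1 in 20. Mt1 in control 16 h replicate 5 was the highest of its group at 2065 CPM. Slc30a1 in VWF 3.5 h replicate 4 was the highest at 36.8 CPM. The Mt1 to Mt2 count ratio was lowest in control 3.5 h replicate 1, at 481, and in LPS 3.5 h replicate 4, at 159.

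The effect of treatment differed between 3.5 h and 16 h by an interaction term in edgeR. For VWF against control the log2 change of the effect was -2.58 for Mt1, 1.09 for Slc30a1 and -2.52 for Slc39a14. For LPS against control it was -1.41 for Mt1, -2.16 for Mt2 and 1.08 for Slc30a1. For VWF against LPS it was -1.18 for Mt1, -1.88 for Mt2 and -1.96 for Slc39a14. The first and second sets share their control cultures. With 1 culture left out, Mt1 stayed called in 14 of 18 fits for LPS against control and in 10 of 18 for VWF against LPS. The Mt1 change for LPS against control was also lost with the tilt as a covariate. Slc30a1 stayed called in 19 of 20 such fits for VWF and in 16 of 18 for LPS. Mt2 passed the filter of 10 TPM only through LPS-treated cultures, and Slc39a14 only through cultures at 3.5 h.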

How the results depend on the processing

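No result changed direction while called. DESeq2, median-of-ratios factors, the fit of all groups and the replicate block changed no count of zinc genes called. The number called for VWF against control at 16 h was 2 with no fold threshold, library size scaling, filterByExpr or no filter, and 1 to 2 with a culture left out. For LPS against control at 16 h it was 0 with library size scaling and 1 to 2 with a culture left out. Between the times it was 3 in control cultures with no fold threshold, 0 without the 5 cultures of far tilt and 0 to 2 with a culture left out, and in LPS-treated cultures 2 with library size scaling, 2 without the 5 cultures and 1 to 2 with a culture left out. For the time change of VWF against LPS it was 1 with no filter.

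Genes called over the whole table rose with filterByExpr and with no filter, since more genes were tested. They were 2099 and 2366 for VWF against control at 3.5 h and 1362 and 1378 at 16 h, 3917 and 4542 for LPS against control and 4087 and 4224 at 16 h, and 1776 and 1942 for VWF against LPS and 3897 and 4242 at 16 h. Between the times they were 1570 and 1524 in control, 3458 and 3974 in VWF-treated and 4116 and 4298 in LPS-treated cultures. For the time changes they were 1972 and 1904 for VWF, 3790 and 3613 for LPS and 3576 and 3528 for VWF against LPS.

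With the replicate number as a block, the log2 Mt1 to Mt2 ratio differed by -1.17 (VWF against control, 3.5 h), -1.94 and -1.22 (LPS against control, 3.5 h and 16 h), 0.72 and 2.15 (VWF against LPS), each at adjusted exact p = 0.15, since few pairs allow no smaller p. Without the 5 cultures the values were -1.21, -1.93, -1.24, 0.72 and 2.05, each at adjusted exact p = 0.0686. On the linear scale VWF against LPS at 16 h differed by 1194 (adjusted exact p = 0.0667). With a culture left out, VWF against LPS gave 0.69 to 0.93 for 3.5 h and 1.45 to 2.15 for 16 h. Mt2 had the fewest counts of the 5 genes, at 2 to 18 counts with VWF at 16 h.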
